A study of Mus musculus with 9 samples.

Results

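Ribosome biogenesis factors are the proteins that transcribe, modify, cut and assemble ribosomal RNA on its way to finished ribosomal subunits. Their mRNA levels are described here in quiescent MEFs, which are mouse embryonic fibroblasts, the matrix-making cells that grow out of dissociated embryos. The genes were taken by name from a list of 57, from RNA polymerase I (Pol I) subunits to late assembly factors, by a rule that uses no expression value, although the list was drawn up with earlier results of these data known. Of these, 56 had a probe set assigned to them alone, among 19937 genes measured, and Noc2l was not analysed here. For the 3 members with more than 1 such probe set the brightest was used. All 56 had a mean at or above 7.24 on the log2 scale, the 40th percentile of genes, and were tested among 11962 genes.

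RNA was measured on 9 Affymetrix arrays, 3 each from p27CK (CK), p27KO (KO) and wild-type (WT) MEFs, and no other allele or agent is named for any group. All cells had grown in 10% fetal bovine serum and then spent 72 h in serum-free medium, a standard way to bring fibroblasts to rest. In published work p27CK is a form of p27, the cell cycle inhibitor encoded by Cdkn1b, whose changed residues abolish binding to cyclins and their kinases, while the labels give only the name. The extraction protocol names delta51 mice without saying which cells these are. Whether arrays of 1 genotype stem from separate embryos or cultures is not stated, so the p-values cover array spread that may be purely technical, and genotype and culture cannot be told apart.

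As a check of the labels, Cdkn1b read 11.10 ± 0.09 in CK, 7.38 ± 0.11 in KO and 11.46 ± 0.04 in WT cells (log2, SD, n = 3). The low level checks the KO label only, not CK against WT. A dimmer probe set of Cdkn1b was not lower in KO, at 7.08 ± 0.11 in CK, 7.60 ± 0.05 in KO and 7.43 ± 0.12 in WT cells. Over all probe sets, arrays correlated at 0.995 to 0.998 within a genotype and at 0.964 to 0.975 across genotypes. Of 15 fibroblast markers, 14 passed the filter on dim genes, and vimentin (Vim) read 13.85 ± 0.01 in CK, 14.01 ± 0.00 in KO and 13.92 ± 0.02 in WT cells. Thy1, a fibroblast surface protein, read 11.69 ± 0.06 in CK, 7.14 ± 0.25 in KO and 11.73 ± 0.19 in WT cells, and of the 14 tested markers 1 rose and 10 fell in KO and 3 rose and 4 fell in CK. In KO that is 7.14% rising and 71.4% falling, against 26.6% and 24.6% of all tested genes. In CK it is 21.4% and 28.6%, against 30.7% and 32.1%. Thy1 is among the KO falls. Its KO mean lay below the value of the filter on dim genes, so Thy1 was tested only through its higher CK and WT levels. These are bulk samples, in which fewer cells of a type and less RNA per cell cannot be told apart.

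Ribosomes are built in the nucleolus. Pol I makes a long precursor RNA, small nucleolar ribonucleoproteins (snoRNPs) guide its chemical modification, the small subunit processome folds and cuts its leading part, and separate factors assemble the large subunit. The pathway is among the most costly of a growing cell, is driven by growth signals through factors such as Myc and Rrn3, and is turned down in fibroblasts that lack serum.

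Before the values, promoters are shown for members at the extremes, so that the stretch in front of strongly raised genes can be read beside that of genes that did not pass any test. Each runs 5′ to 3′ over the 250 bases before the annotated start of the gene, from RefSeq, build GRCm38.p6. The window of Nop58, which had the largest rise in KO, is chr1:59684756-59685005 (plus strand). Those of Rrp9 and Polr1e, with the largest rises in CK, are chr9:106477059-106477308 (plus strand) and chr4:45018359-45018608 (plus strand). Those of Utp18 and Noc3l, called in no comparison, are chr11:93885767-93886016 (minus strand) and chr19:38819238-38819487 (minus strand). Capitals mark matches to any of 4 motifs searched on both strands.
Nop58: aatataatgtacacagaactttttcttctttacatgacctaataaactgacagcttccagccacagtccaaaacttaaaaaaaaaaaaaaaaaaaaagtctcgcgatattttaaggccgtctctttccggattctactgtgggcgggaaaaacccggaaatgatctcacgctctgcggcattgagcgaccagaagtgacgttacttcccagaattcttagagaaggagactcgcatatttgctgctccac
Rrp9: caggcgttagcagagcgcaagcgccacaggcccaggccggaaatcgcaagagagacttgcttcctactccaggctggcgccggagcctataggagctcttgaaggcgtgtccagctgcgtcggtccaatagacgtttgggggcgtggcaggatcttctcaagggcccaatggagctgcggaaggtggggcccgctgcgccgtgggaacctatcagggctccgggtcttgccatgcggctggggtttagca
Polr1e: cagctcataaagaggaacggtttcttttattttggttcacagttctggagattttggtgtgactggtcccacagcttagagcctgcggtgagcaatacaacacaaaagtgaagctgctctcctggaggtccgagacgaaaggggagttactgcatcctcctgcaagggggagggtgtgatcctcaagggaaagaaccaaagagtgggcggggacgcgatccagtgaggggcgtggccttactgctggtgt
Utp18: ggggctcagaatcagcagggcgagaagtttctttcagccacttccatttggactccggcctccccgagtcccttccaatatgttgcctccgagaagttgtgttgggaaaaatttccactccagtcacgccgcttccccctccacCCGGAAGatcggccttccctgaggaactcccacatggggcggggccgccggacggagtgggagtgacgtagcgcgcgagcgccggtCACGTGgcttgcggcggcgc
Noc3l: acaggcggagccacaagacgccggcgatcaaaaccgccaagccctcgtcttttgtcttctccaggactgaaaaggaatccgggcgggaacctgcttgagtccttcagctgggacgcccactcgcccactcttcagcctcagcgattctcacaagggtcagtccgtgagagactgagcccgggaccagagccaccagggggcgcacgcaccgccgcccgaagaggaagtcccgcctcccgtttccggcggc
The motifs were CACGTG (the E-box that Myc and Max bind), CCGGAAG (bound by ETS factors) and the palindromes bound by NRF1 and by BANP. Overlapping matches of different motifs were each counted. Of the sequences shown, that of Utp18 held a CACGTG and a CCGGAAG, and the other 4 held no match. A promoter was listed for 48 of the 56 members. CACGTG was found in 4 of them (8.33%: Imp4, Nop2, Rrn3 and Utp18), against 6.05% of all 27025 promoters and 8.51% of the 9564 promoters of tested genes. CCGGAAG was found in 12 of them (25%), against 7.05% of all promoters and 13.7% of those of tested genes. Those 12 members were Ddx10, Emg1, Gar1, Heatr1, Nhp2, Nip7, Nolc1, Nop2, Polr1c, Utp18, Utp4 and Wdr74. The NRF1 and BANP motifs were found in none of the 48, against 0.781% and 0.407% of all promoters and 1.62% and 0.868% of those of tested genes. A match describes these letters in this window and does not show binding.

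In KO cells most of the pathway read higher than in WT cells. Of the 56 members 37 rose and 1 fell, where 26.6% of all tested genes rose and 24.6% fell (limma, adjusted p under 0.05), so 38 were called, against 51.2% of genes. The median difference of the members was 0.31 on the log2 scale, against 0.01 for all tested genes. The rises were small, from 0.17 for Rrp1b to 0.96 for Nop58, and 10 members rose by at least 1.5-fold, as did 7.96% of tested genes. The KO arrays lay wholly above the WT arrays for 44 members, against 32.0% of genes, and wholly below for 2, against 28.9%. The counts include Rrs1, whose WT mean lay below the filter value, so that it was tested only through its higher mutant levels, and without it 36 of 55 members rose. Among those 55 the largest rises were those of the snoRNP protein Nop58 (1.95-fold), the Pol I subunit Polr1e (1.72-fold) and the processome protein Utp4 (1.65-fold). Utp6, also of the processome, was the member that fell, with a log2 difference of -0.30 (SE 0.07, limma adjusted p = 0.0037).

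In CK cells as many members were raised over WT, several by more, and others were reduced. Of the 56 members 37 rose and 8 fell, where 30.7% of all tested genes rose and 32.1% fell, and the 45 called compare with 62.9% of genes. Without Rrs1, 36 of 55 rose. Their median difference was 0.28, against -0.01 for all tested genes. At least 1.5-fold rises were seen for 20 members, against 12.2% of genes, and no fall reached that size, against 13.1% of genes. CK arrays lay wholly above WT arrays for 36 members, against 33.0% of genes, and wholly below for 8, against 34.3%. Rrp9, Polr1e, Heatr1 and Utp4 rose by 2.35-fold, 2.26-fold, 2.05-fold and 2.05-fold. The members that fell were Utp6, Wdr36, Ubtf, Imp3, Ddx52, Wdr12, Utp20 and Nop10, with log2 differences between -0.57 and -0.20. The 3 WT arrays serve both comparisons, so the mutants' differences from WT are not independent of each other.

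**Figure D1:**
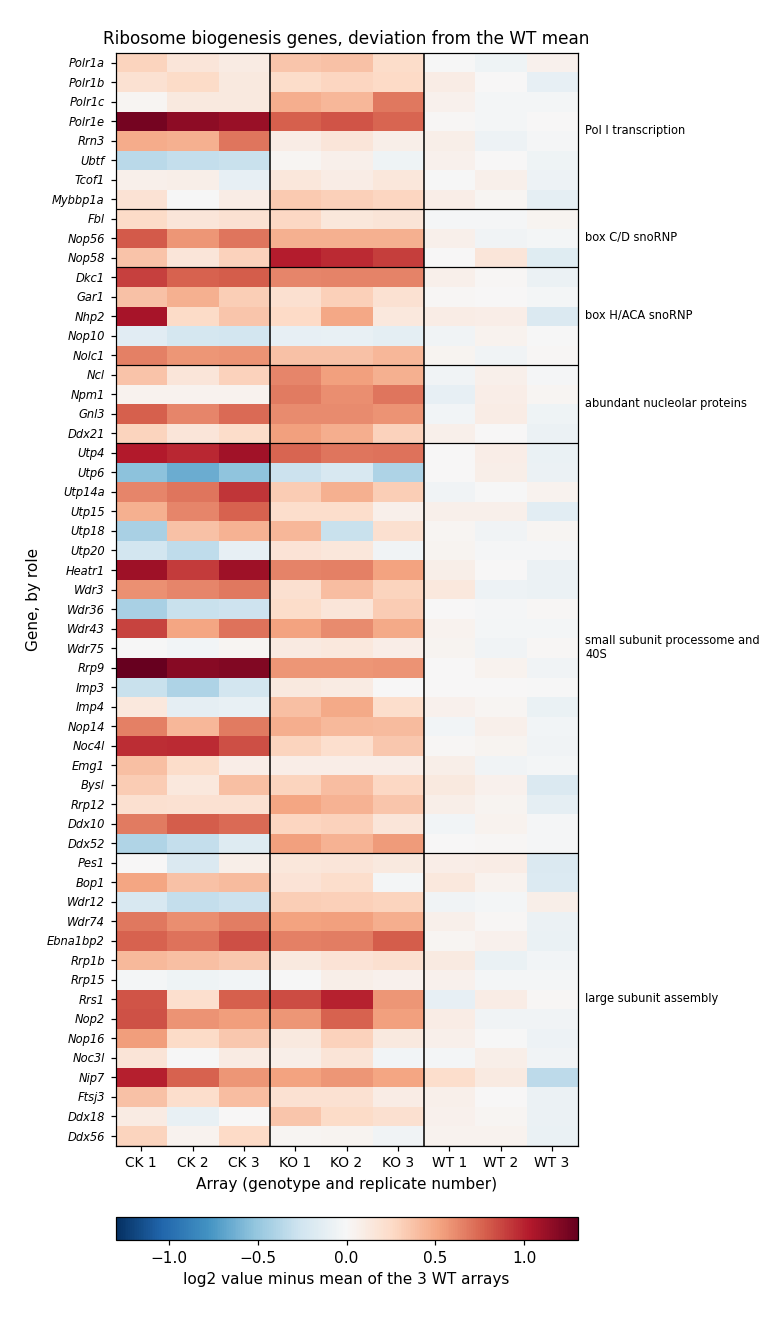
Each row is a ribosome biogenesis gene and each column an array, with colour giving the log2 value minus the mean of the 3 WT arrays. Most rows are red in CK and KO, and Utp6 is blue in both.

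**Figure D2:**
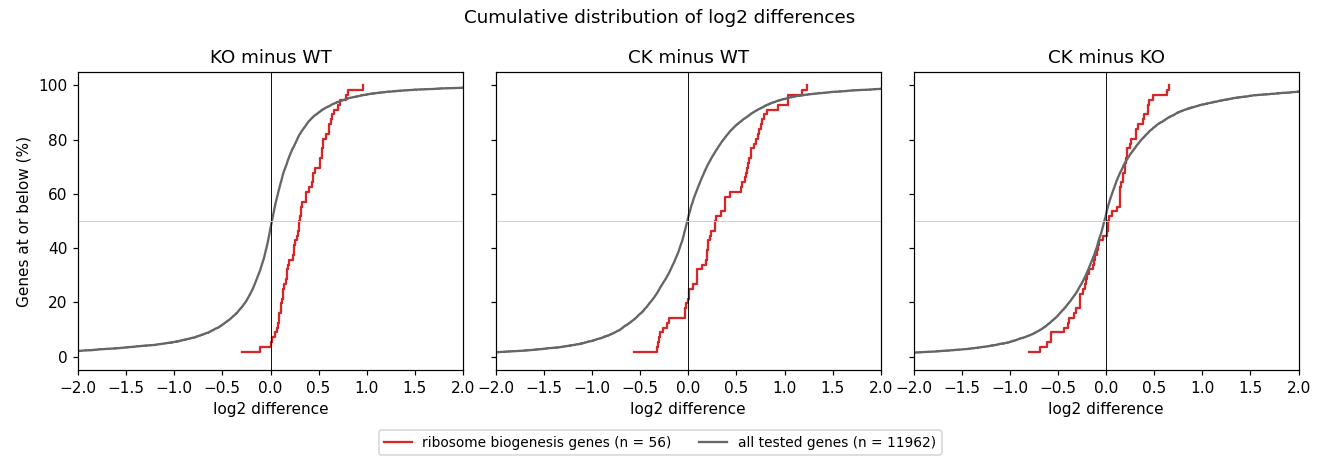
Cumulative share of genes (%) against the log2 difference for the 56 ribosome biogenesis genes and all 11962 tested genes. The curve of the 56 genes is shifted to higher values in KO minus WT (median 0.31) and CK minus WT (median 0.28), and lies near that of all genes in CK minus KO (median 0.02).

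Between CK and KO cells, members differed gene by gene rather than in one direction. Of the members 19 were higher and 16 lower in CK than in KO, where 29.5% of all tested genes were higher and 32.7% lower, and the 35 called compare with 62.2% of genes, a share close to the members' own. CK arrays lay wholly above KO arrays for 21 members, against 31.7% of genes, and wholly below for 21, against 35.8%. The median difference was 0.02, against -0.02 for all tested genes. This median was -0.01 without CK replicate 1 and -0.04 without genes read on both sides of 10, so its sign is not settled. The highest in CK were Rrp9, Noc4l and Ddx10, all of the small subunit pathway, and the lowest were Ddx52, Nop58 and Npm1.

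Of the 4 Pol I subunits on the list, all rose in KO and 3 rose in CK. Counts by role, here and below, stand beside 26.6% of all tested genes rising and 24.6% falling in KO. In CK these shares were 30.7% and 32.1%. Polr1e, a subunit that takes part in initiation, had 8.97, 8.90 and 8.86 on the CK arrays, 8.51, 8.55 and 8.49 on the KO arrays and 7.75, 7.71 and 7.74 on the WT arrays (probe set 10504518, chromosome 4; log2), where chromosomes here and below are those of the gene in RefSeq. No arrays of different genotypes overlapped, with CK highest and WT lowest. The differences were 0.78 in KO (SE 0.05, limma adjusted p = 3.79e-07) and 1.18 in CK (limma adjusted p = 1.45e-08), and CK exceeded KO by 0.39. Polr1a, the largest subunit, rose by 0.33 in KO and 0.19 in CK. Polr1b, which completes the active centre with it, rose by 0.26 in KO and 0.19 in CK. Polr1c, shared with RNA polymerase III, rose by 0.53 in KO, while CK differed from WT by 0.09 (limma adjusted p = 0.287).

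Among factors that work with Pol I, 1 of 4 was raised in KO (25%), and 1 was raised and 1 reduced in CK (25% each). These shares are near those of all tested genes. Rrn3, which brings the polymerase to the promoter and responds to growth signals, read 11.56, 11.55 and 11.77 in CK, 11.18, 11.23 and 11.15 in KO and 11.16, 11.02 and 11.07 in WT cells. It rose in CK by 0.55 (SE 0.07, limma adjusted p = 5.86e-05), while KO differed from WT by 0.11 (adjusted p = 0.239). Ubtf, which binds along active ribosomal DNA, fell in CK, at 10.93, 10.97 and 10.99, against 11.33, 11.28 and 11.22 in WT (log2 difference -0.32, adjusted p = 0.00043). KO and WT arrays overlapped for Ubtf. Mybbp1a, a nucleolar protein that binds Pol I and Myb, rose by 0.31 in KO. Tcof1, the treacle protein, which holds Pol I factors in the nucleolus, passed no test.

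The 3 box C/D snoRNP genes on the list rose in both mutants. These particles place methyl groups on ribosomal RNA through the enzyme fibrillarin (Fbl), and Nop56 and Nop58 form their scaffold. Nop58 had 9.58, 9.36 and 9.50 on the CK arrays, 10.23, 10.17 and 10.10 on the KO arrays and 9.20, 9.36 and 9.05 on the WT arrays (probe set 10346634, chromosome 1). The KO arrays stood above all others, and the lowest CK array equalled the highest WT array to 2 decimals. Nop58 rose in KO by 0.96 (SE 0.08, limma adjusted p = 4.37e-06) and in CK by 0.28 (adjusted p = 0.0148). The CK call was lost without CK replicate 1 (adjusted p = 0.0581) or WT replicate 3 (adjusted p = 0.0566).

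Nop56 ran in the other order, with 12.14, 11.92 and 12.03 on the CK arrays, 11.81, 11.81 and 11.81 on the KO arrays and 11.41, 11.30 and 11.32 on the WT arrays (probe set 10476093, chromosome 2). It rose by 0.69 in CK and 0.46 in KO, and CK exceeded KO by 0.22 (SE 0.06, limma adjusted p = 0.0101). For Nop58 the difference of CK from KO was -0.69 (adjusted p = 3.94e-05), so partners in 1 particle differed between the mutants in opposite directions. Fbl rose by 0.20 in CK and 0.20 in KO, and CK minus KO was 0.01 (95% interval -0.11 to 0.13). Its other probe set rose by 0.20 in CK and 0.28 in KO, in a limma fit of all probe sets (adjusted p = 0.0457 and 0.0127).

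Of the box H/ACA snoRNP genes, Dkc1, Gar1 and the chaperone Nolc1 rose in both mutants, and Nop10 did not rise in either. These particles turn uridines of ribosomal RNA into pseudouridines. Dkc1, the pseudouridine synthase, whose human mutations cause dyskeratosis congenita, had 10.29, 10.16 and 10.18 on the CK arrays, 10.03, 10.04 and 10.04 on the KO arrays and 9.46, 9.41 and 9.31 on the WT arrays (probe set 10600485, chromosome X). All CK and KO arrays lay above all WT arrays, with rises of 0.82 in CK and 0.64 in KO (limma adjusted p = 5.8e-07 and 4.96e-06). CK exceeded KO by 0.17 (adjusted p = 0.0215), a call lost without CK replicate 1, KO replicate 1 or KO replicate 2, when the adjusted p was 0.078, 0.06 and 0.0521.

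Nolc1 rose by 0.60 in CK and 0.40 in KO, and Gar1 by 0.39 in CK and 0.24 in KO. Nhp2 varied more, with 9.84, 9.01 and 9.13 in CK, 9.02, 9.27 and 8.90 in KO and 8.87, 8.85 and 8.58 in WT cells. CK replicate 1 was far above the other CK arrays. The rise of 0.56 in CK passed the test (adjusted p = 0.025), and the difference of 0.30 in KO did not (adjusted p = 0.219). Every KO array of Nhp2 still lay above every WT array. Tested directly, CK minus KO was 0.26 and not called (limma adjusted p = 0.261). Nop10, the smallest core protein, fell in CK (log2 difference -0.20, adjusted p = 0.00485) and read -0.11 in KO minus WT (adjusted p = 0.0922). Its CK minus KO difference of -0.09 was not called (limma adjusted p = 0.135).

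Abundant nucleolar proteins all rose in KO, and 3 of 4 rose in CK. Npm1, nucleophosmin, a chaperone of the granular nucleolus that also binds the Arf tumour suppressor, had 11.36, 11.36 and 11.36 on the CK arrays, 11.99, 11.92 and 12.01 on the KO arrays and 11.21, 11.40 and 11.34 on the WT arrays (probe set 10385043, chromosome 11). The KO arrays lay above all others, while CK and WT arrays overlapped. Npm1 rose by 0.66 in KO (SE 0.06, limma adjusted p = 5.55e-06), CK minus WT was 0.05 (95% interval -0.09 to 0.18), and CK was below KO (log2 difference -0.61, adjusted p = 6.65e-06). Its CK arrays were nearly equal, so their spread says little about precision.

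Gnl3, nucleostemin, a nucleolar GTPase of dividing cells, had 10.56, 10.42 and 10.52 on the CK arrays, 10.40, 10.40 and 10.37 on the KO arrays and 9.74, 9.87 and 9.73 on the WT arrays (probe set 10418480, chromosome 14). It rose by 0.72 in CK and 0.61 in KO, with every mutant array above every WT array. Nucleolin (Ncl), which binds the precursor RNA, rose by 0.55 in KO and 0.28 in CK. The RNA helicase Ddx21 rose by 0.43 in KO and 0.23 in CK. For both, CK was lower than KO, by a log2 difference of -0.27 for Ncl (limma adjusted p = 0.007) and -0.21 for Ddx21 (adjusted p = 0.0278).

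**Figure D3:**
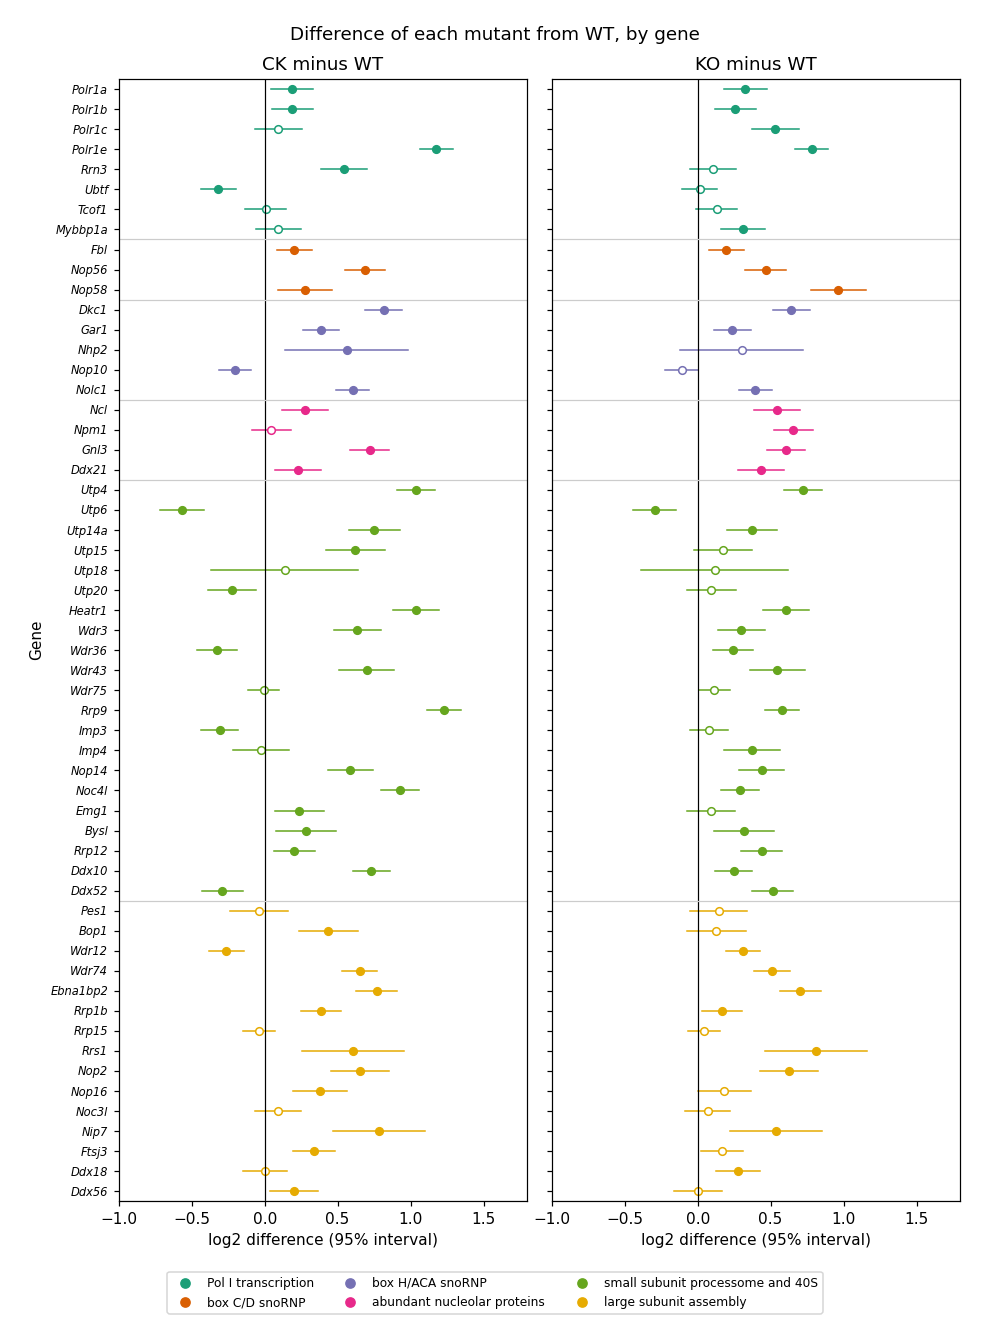
Log2 differences of each ribosome biogenesis gene from WT with 95% intervals, CK on the left and KO on the right, coloured by role. Filled points passed limma at an adjusted p under 0.05, which 37 genes did above 0 in each mutant, and 8 in CK and 1 in KO did below 0.

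The small subunit processome is a large particle on the precursor RNA. The 21 listed genes of the processome and of later small subunit assembly gave 14 rises and 1 fall in KO, and 13 rises and 5 falls in CK. The rises were 66.7% of the list in KO, against 26.6% of all tested genes, and 61.9% in CK, against 30.7%. The falls in CK were 23.8%, against 32.1%. Members of the processome's UtpA block, which binds the nascent RNA first and in human cells is tied to Pol I transcription, were raised in CK except Wdr75. Utp4 had 11.83, 11.79 and 11.90 on the CK arrays, 11.56, 11.50 and 11.51 on the KO arrays and 10.81, 10.89 and 10.72 on the WT arrays (probe set 10575102, chromosome 8). No arrays of different genotypes overlapped. Utp4 rose by 1.03 in CK (SE 0.06, limma adjusted p = 1.19e-07) and 0.72 in KO (adjusted p = 2.58e-06).

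Heatr1, the UtpA scaffold, read 10.36, 10.18 and 10.37 in CK, 9.91, 9.92 and 9.78 in KO and 9.34, 9.26 and 9.19 in WT cells, again with no overlap. It rose by 1.04 in CK and 0.61 in KO. Wdr43 rose by 0.70 in CK and 0.54 in KO. Utp15 rose by 0.62 in CK, and KO minus WT was 0.17 (limma adjusted p = 0.137). Utp4, Heatr1 and Utp15 were each higher in CK than in KO, by 0.32, 0.43 and 0.45.

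The UtpB block, which joins after UtpA, was mixed. Wdr3 rose by 0.64 in CK and 0.30 in KO. Utp6 fell in both, reading 9.60, 9.49 and 9.61 in CK, 9.85, 9.93 and 9.74 in KO and 10.14, 10.21 and 10.06 in WT cells, with log2 differences of -0.57 (limma adjusted p = 2.88e-05) and -0.30 (adjusted p = 0.0037). Its 3 genotypes did not overlap, with WT highest.

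Wdr36, a UtpB protein linked to human glaucoma, had 10.29, 10.43 and 10.44 on the CK arrays, 10.96, 10.87 and 11.05 on the KO arrays and 10.72, 10.70 and 10.73 on the WT arrays (probe set 10454606, chromosome 18). KO arrays were highest and CK arrays lowest, with WT between and no overlap. It rose in KO by 0.24 (limma adjusted p = 0.00746) and fell in CK (log2 difference -0.33, adjusted p = 0.000887). Utp18, the remaining UtpB protein here, spread widely within the mutants and passed no test.

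Around the small nucleolar RNA U3, which pairs with the precursor, Rrp9 is the protein that no other snoRNP carries. Rrp9 had 10.04, 9.93 and 9.95 on the CK arrays, 9.32, 9.31 and 9.33 on the KO arrays and 8.75, 8.78 and 8.69 on the WT arrays (probe set 10588522, chromosome 9). The 3 genotypes were far apart relative to their spread, with CK highest. The rise was 1.23 in CK (SE 0.05, limma adjusted p = 1.3e-08) and 0.58 in KO (adjusted p = 5.35e-06), and CK exceeded KO by 0.65 (adjusted p = 1.41e-06). Imp3 and Imp4, which help U3 pair, did not follow Rrp9 in CK. Imp3 fell in CK (log2 difference -0.31) and Imp4 rose in KO by 0.37, and both were lower in CK than in KO, with differences of -0.39 and -0.40.

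Noc4l and Nop14, which bind each other in yeast, rose in both mutants. Noc4l had 10.29, 10.30 and 10.17 on the CK arrays, 9.62, 9.55 and 9.68 on the KO arrays and 9.34, 9.36 and 9.29 on the WT arrays (probe set 10532390, chromosome 5). It rose by 0.93 in CK and 0.29 in KO, and CK exceeded KO by 0.64 (SE 0.06, limma adjusted p = 3.85e-06). Nop14 rose by 0.59 in CK and 0.44 in KO, with CK minus KO at 0.15 (adjusted p = 0.0826).

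The helicases of the small subunit pathway went separate ways. Ddx10 had 9.91, 10.02 and 9.96 on the CK arrays, 9.51, 9.53 and 9.39 on the KO arrays and 9.19, 9.28 and 9.22 on the WT arrays (probe set 10593508, chromosome 9). It rose by 0.73 in CK and 0.25 in KO. Ddx52 had 9.87, 9.95 and 10.09 on the CK arrays, 10.79, 10.71 and 10.81 on the KO arrays and 10.26, 10.27 and 10.24 on the WT arrays (probe set 10379779, chromosome 11). The KO arrays were highest and the CK arrays lowest, with no overlap. Ddx52 rose in KO by 0.51 (SE 0.06, limma adjusted p = 6e-05), fell in CK (log2 difference -0.29, adjusted p = 0.00223), and gave the largest CK minus KO difference of the 56 members in size, at -0.80 (adjusted p = 1.26e-06).

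Among the remaining small subunit factors, Utp14a, which activates a helicase of the processome in yeast, rose by 0.75 in CK and 0.37 in KO. Rrp12, needed for export of the subunit in yeast, rose by 0.20 in CK and 0.44 in KO, and Bysl, a factor of the maturing subunit, by 0.28 in CK and 0.32 in KO. Emg1, a methyltransferase, rose by 0.24 in CK and read 0.09 in KO minus WT (limma adjusted p = 0.353), with 3 equal KO values. Its CK minus KO difference of 0.15 was not called (limma adjusted p = 0.112). Utp20, a long scaffold protein, fell in CK (log2 difference -0.22, limma adjusted p = 0.0237) and read 0.09 in KO minus WT (adjusted p = 0.336).

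**Figure D4:**
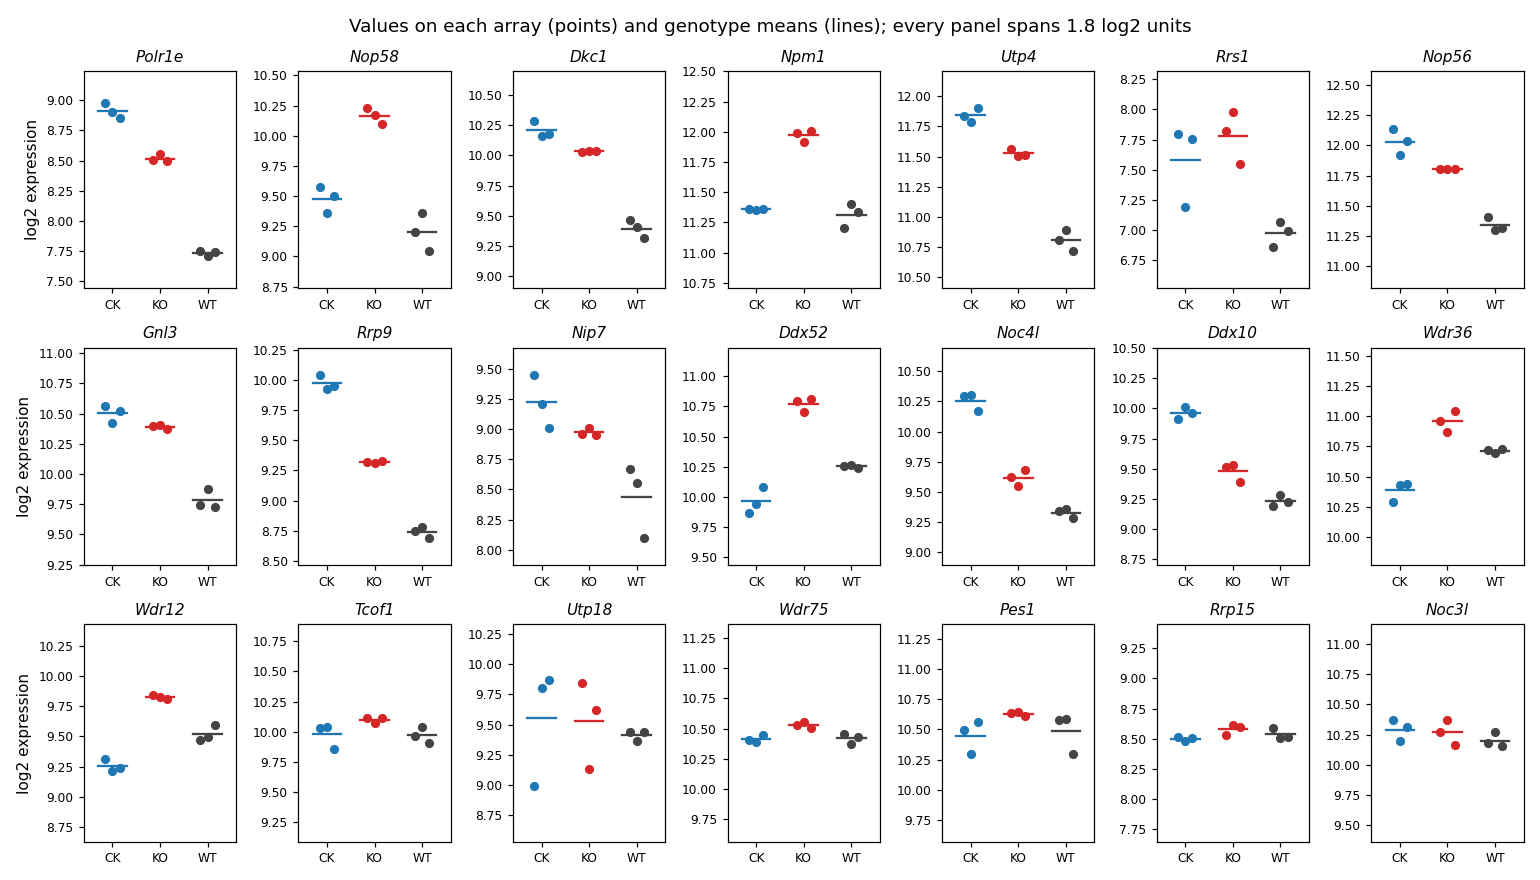
Log2 expression on each array for 21 ribosome biogenesis genes, points by genotype (CK, KO, WT from the left) with lines at the means. Rrp9 and Polr1e step down from CK to KO to WT, Ddx52, Wdr36 and Wdr12 are highest in KO and lowest in CK, and Utp18 is spread within both mutants.

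Of the 15 large subunit genes measured, 8 rose and 0 fell in KO by limma (0 below 0 at an unadjusted p under 0.05), and 10 rose and 1 fell in CK. The rises were 53.3% of the list in KO, against 26.6% of all tested genes, and 66.7% in CK, against 30.7%. Both counts of rises include Rrs1. Rrs1, which with a partner brings a small ribosomal RNA into the particle in yeast, was the dimmest member, with 7.79, 7.19 and 7.75 on the CK arrays, 7.82, 7.98 and 7.54 on the KO arrays and 6.86, 7.06 and 6.99 on the WT arrays (probe set 10344723, chromosome 1). All mutant arrays lay above all WT arrays. Since the WT level was below the filter value of 7.24, Rrs1 entered the counts only through its higher mutant levels, and these values are a description.

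Nip7, which acts with Nop2 in rRNA processing, had 9.45, 9.21 and 9.01 on the CK arrays, 8.96, 9.01 and 8.95 on the KO arrays and 8.67, 8.55 and 8.10 on the WT arrays (probe set 10575144, chromosome 8). WT replicate 3 lay well below the other WT arrays, and no mutant array overlapped WT. The rise was 0.78 in CK (SE 0.14, limma adjusted p = 0.000697) and 0.54 in KO (adjusted p = 0.00955). Nop2, a methyltransferase of the large subunit RNA, rose by 0.65 in CK and 0.63 in KO. Ebna1bp2, a nucleolar scaffold protein, rose by 0.77 in CK and 0.70 in KO, and Wdr74, an early assembly factor, by 0.65 in CK and 0.51 in KO. CK minus KO was 0.07 for Ebna1bp2 (95% interval -0.08 to 0.21) and 0.03 for Nop2 (95% interval -0.17 to 0.22).

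Pes1, Bop1 and Wdr12 form a complex that is needed to process the precursor of the large subunit RNAs, and their mRNAs did not move together. Bop1 rose by 0.44 in CK (limma adjusted p = 0.00169), Pes1 passed no test, and Wdr12 went both ways. Wdr12 had 9.31, 9.21 and 9.24 on the CK arrays, 9.84, 9.83 and 9.81 on the KO arrays and 9.47, 9.49 and 9.59 on the WT arrays (probe set 10550098, chromosome 1, the brighter of its probe sets). KO was highest and CK lowest, with no overlap. It rose in KO by 0.31 (adjusted p = 0.000632) and fell in CK (log2 difference -0.26, adjusted p = 0.00137). In a separate limma fit of all named probe sets, its other probe set fell in CK too (log2 difference -0.55, adjusted p = 0.00581), and its KO minus WT difference of 0.20 did not pass the test (adjusted p = 0.289). The called rise of Wdr12 in KO therefore rests on the brighter probe set alone. Whether that probe set lies at the Wdr12 gene itself was not checked.

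Nop16, Ftsj3 and Ddx56 passed the test against WT in CK and not in KO. Nop16, a nucleolar protein, rose by 0.38, the methyltransferase Ftsj3 by 0.34 and the helicase Ddx56 by 0.20 in CK. KO minus WT was 0.18 for Nop16 (limma adjusted p = 0.0877), 0.16 for Ftsj3 (adjusted p = 0.0541) and 0.00 for Ddx56 (adjusted p = 0.973). Tested directly, Ftsj3 and Ddx56 were higher in CK than in KO (adjusted p = 0.0372 and 0.0395), calls lost in 6 of 9 fits for Ftsj3 and 7 of 9 for Ddx56 when 1 array was left out. Nop16 was not called (adjusted p = 0.0606). Rrp1b, a nucleolar protein of the large subunit path, rose by 0.39 in CK and 0.17 in KO. Ddx18, a helicase, rose by 0.27 in KO, and its other probe set, in the limma fit of all probe sets, gave a difference of 0.29 that was not called (adjusted p = 0.125).

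Of the 56 members 50 were called in at least 1 comparison (89.3%), against 79.7% of all tested genes, and 6 were called in none. Tcof1 read 10.03, 10.04 and 9.86 in CK, 10.12, 10.07 and 10.12 in KO and 9.97, 10.04 and 9.90 in WT cells. Wdr75 read 10.41, 10.39 and 10.44 in CK, 10.53, 10.55 and 10.51 in KO and 10.45, 10.37 and 10.43 in WT cells, and its CK minus KO difference of -0.12 was close to the threshold (limma adjusted p = 0.0524). Pes1 read 10.49, 10.29 and 10.56 in CK, 10.63, 10.64 and 10.61 in KO and 10.58, 10.58 and 10.30 in WT cells, with 1 low array in CK and 1 in WT. None of these shows equality of the genotypes: the 95% interval of KO minus WT was -0.01 to 0.27 for Tcof1, 0.01 to 0.22 for Wdr75 and -0.06 to 0.34 for Pes1.

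Rrp15, a large subunit factor, read 8.51, 8.48 and 8.50 in CK, 8.53, 8.61 and 8.60 in KO and 8.59, 8.51 and 8.51 in WT cells. Its 95% interval was -0.07 to 0.15 for KO minus WT and -0.15 to 0.07 for CK minus WT. Noc3l, which works in large subunit transport in yeast, read 10.37, 10.20 and 10.31 in CK, 10.27, 10.37 and 10.16 in KO and 10.18, 10.27 and 10.15 in WT cells. Utp18 read 8.99, 9.80 and 9.87 in CK, 9.84, 9.13 and 9.62 in KO and 9.44, 9.37 and 9.44 in WT cells. CK replicate 1 and KO replicate 2 were low, and the interval of its KO minus WT difference, -0.39 to 0.62, was the widest of the 56 members in that comparison.

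Each comparison was refitted 9 times with 1 array left out, and some members' calls were lost. In CK against WT the call of Ddx56 was lost in 5 of the 9 fits, that of Utp20 in 4, those of Bysl, Emg1 and Polr1a in 3 each, those of Ddx21, Nhp2, Nop58 and Polr1b in 2 each, and that of Rrp12 in 1. CK replicate 1 was the array left out in a lost call for Bysl, Ddx21, Ddx56, Emg1, Nhp2, Nop58, Polr1a and Utp20, and WT replicate 3 for Bysl, Ddx21, Ddx56, Emg1, Nhp2, Nop58, Polr1b and Rrp12. In KO against WT the call of Rrp1b was lost in 6 fits, without CK replicate 2, any of the KO arrays, WT replicate 2 or WT replicate 3. Those of Bysl and Fbl were lost in 1 fit each, without KO replicate 2 for Bysl and KO replicate 1 for Fbl. In CK against KO the call of Ddx56 was lost in 7 fits, those of Ftsj3, Gar1 and Wdr74 in 6 each, those of Ddx21 and Dkc1 in 3 each, and that of Mybbp1a in 2.

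**Figure D5:**
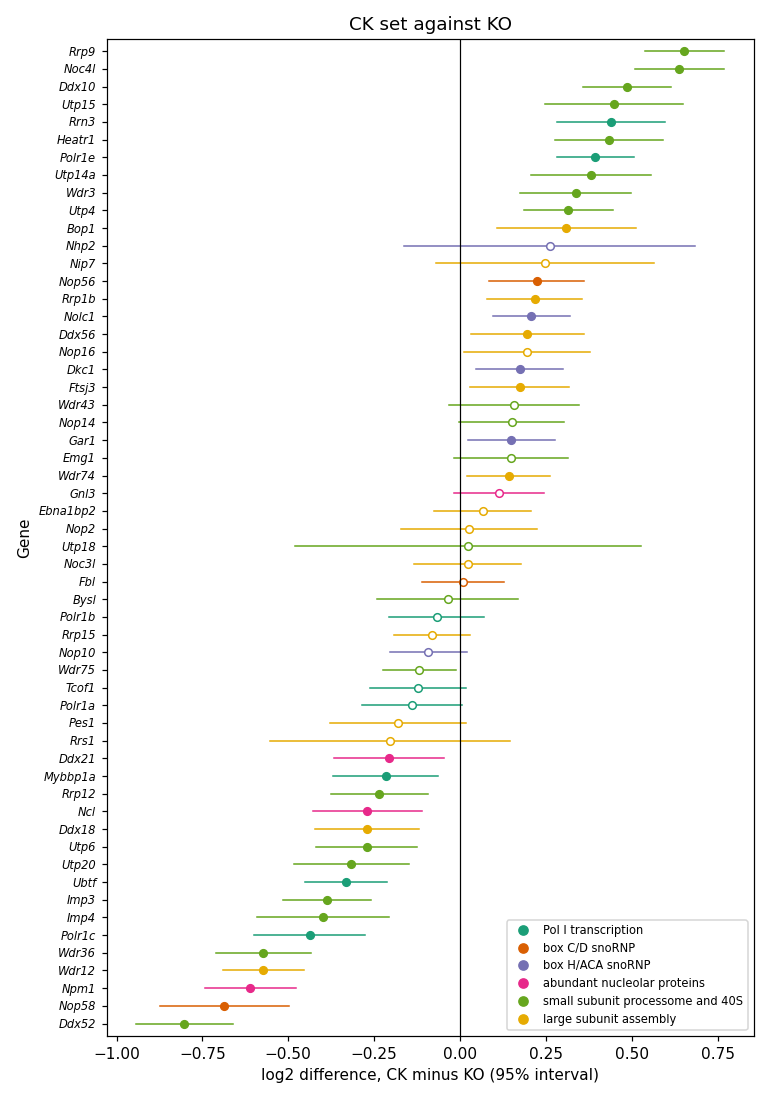
Log2 differences of CK minus KO with 95% intervals for the 56 ribosome biogenesis genes, ordered by size and coloured by role, filled where limma gave an adjusted p under 0.05. Rrp9 and Noc4l are at the top and Ddx52 and Nop58 at the bottom, with 19 genes called above 0 and 16 below.

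Other genes of the pathway, taken from lists of further factors, are given next by their counts and medians, to be read against the 26.6% of all tested genes that rose and 24.6% that fell in KO, and the 30.7% that rose and 32.1% that fell in CK. Of 37 other small subunit factors tested, 21 rose and 0 fell in KO by limma (1 below 0 at an unadjusted p under 0.05), and 18 rose and 3 fell in CK, with median differences of 0.20 in KO and 0.13 in CK. Utp11, a processome protein, rose by 0.80 in KO and 0.78 in CK. Nob1, the nuclease that makes the last cut of the small subunit RNA, rose by 0.60 in KO and 0.23 in CK. Pno1, its partner, rose in CK by 0.59 and was higher there than in KO by 0.67. Nol7 rose by 0.62 in KO, and Lyar, a nucleolar zinc finger protein, and Bud23, a methyltransferase, rose by 0.77 and 0.44 in CK.

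Among 45 other large subunit factors, 22 rose and 2 fell in KO, and 24 rose and 5 fell in CK, with median differences of 0.18 in KO and 0.32 in CK. The 45 include 1 gene with a genotype mean below 7.24, which was tested only through its higher level elsewhere. Gnl2, a GTPase of the particle before export, rose by 0.87 in KO and 0.99 in CK, Tex10 by 0.79 in KO and 0.77 in CK, and Mak16 by 0.53 in KO and 0.86 in CK. Rsl1d1 rose by 0.70 in CK. Nol9, a kinase of rRNA processing, and the helicase Ddx54 were higher in CK than in KO by 0.62 and 0.51, and Pelp1 was lower (log2 difference -0.47).

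Of 11 other Pol I factors, 3 rose and 1 fell in KO, and 3 rose and 6 fell in CK, with median differences of 0.04 in KO and -0.19 in CK. The rises were 27.3% of the list in each mutant, near the shares of 26.6% in KO and 30.7% in CK for all tested genes. Polr1d, shared with RNA polymerase III, rose by 0.68 in CK and 0.36 in KO, and Taf1d by 0.65 in CK and 0.70 in KO. Taf1a and Taf1b, which like Taf1d belong to the factor that selects the Pol I promoter, fell in CK, with log2 differences of -0.56 and -0.19. Cd3eap, the partner of Polr1e in the polymerase, rose by 0.22 in KO and read 0.02 in CK minus WT (limma adjusted p = 0.732). Znrd1, a small subunit of Pol I, fell in CK (log2 difference -0.29) and was lower there than in KO (log2 difference -0.46).

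Of 23 genes of the RNA exosome and RNase MRP, which trim and cut the precursor, 8 rose and 1 fell in KO, and 14 rose and 1 fell in CK, with median differences of 0.11 in KO and 0.25 in CK. The rises were 34.8% of the list in KO, against 26.6% of all tested genes, and 60.9% in CK, against 30.7%. These rises include Rpp25 and Exosc3, 2 genes with a WT mean below 7.24 that were tested only through their higher mutant levels. The margin over all tested genes in KO therefore rests in part on them. Rpp25, a protein of RNase MRP and RNase P, had 9.88, 10.22 and 9.73 in CK, 7.73, 7.76 and 7.80 in KO and 6.93, 6.94 and 6.88 in WT cells. Its WT level was below 7.24, so it was tested only through its higher mutant levels, and these values are a description. Mphosph6 and the exosome nuclease Exosc10 rose by 1.01 and 0.65 in CK. Exosc5 rose by 0.61 in KO, and Pop4 fell there (log2 difference -0.59). Exosc3, whose WT mean was also below the filter value, read 7.56 ± 0.02 in CK, 7.97 ± 0.05 in KO and 7.23 ± 0.12 in WT cells.

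Myc, a transcription factor that drives ribosome biogenesis genes, read 12.11, 12.05 and 12.03 in CK, 12.05, 12.01 and 12.14 in KO and 10.69, 10.77 and 11.02 in WT cells, with every mutant array above every WT array. Of 11 tested genes of the Myc network, 3 rose and 1 fell in KO, and 4 rose and 4 fell in CK. These are 27.3% rising in KO, against 26.6% of all tested genes, and 36.4% each way in CK, against 30.7% and 32.1%, so the list as a whole was near the background. Max-binding repressors of Myc targets were among them, with Mnt and Mxd1 at -0.41 and -0.48 in CK minus WT, both called. Mxd4 rose by 0.43 in KO and fell in CK (log2 difference -0.32), and Mxi1 fell in KO (log2 difference -0.27) and rose by 0.32 in CK. Cdkn2a, which encodes p16 and Arf, the partner of Npm1, read 10.97 ± 0.14 in CK, 8.92 ± 0.04 in KO and 7.80 ± 0.08 in WT cells.

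Other features of the cells also moved with genotype. Of all tested genes 26.6% rose and 24.6% fell in KO, and 30.7% rose and 32.1% fell in CK. Of 13 tested chondrocyte markers 11 rose and 0 fell in KO by limma (0 below 0 at an unadjusted p under 0.05), and 1 rose and 5 fell in CK. A genotype mean below 7.24 was found for 6 of the 13, so some passed the filter only through KO. The mean log2 level of the 14 measured chondrocyte markers was 7.85 to 7.89 in CK, 10.32 to 10.63 in KO and 8.33 to 8.57 in WT arrays. The median difference of the 13 tested markers was 1.72 in KO minus WT and -0.05 in CK minus WT. The CK mean was pulled down by Cnmd, which read 7.30 ± 0.17 in CK, 13.85 ± 0.01 in KO and 13.33 ± 0.01 in WT cells. Of the defining genes Col2a1 read 9.04 ± 0.03 in CK, 12.67 ± 0.19 in KO and 9.47 ± 0.04 in WT cells. Hapln1, which did not pass the filter and was not tested, was lower in KO. It read 5.82 ± 0.08 in CK, 6.21 ± 0.17 in KO and 7.77 ± 0.61 in WT cells. Of 13 proliferation markers 1 rose and 6 fell in KO, and 4 rose and 0 fell in CK by limma (0 below 0 at an unadjusted p under 0.05). The falls in KO were 46.2% of the list, and the rises in CK were 30.8%, near the share of all tested genes. Among the KO falls is Birc5. Its KO mean of 7.20 lay below 7.24, so it was tested only through its higher CK and WT levels. In CK against KO 8 markers were higher and 0 lower by limma (0 below 0 at an unadjusted p under 0.05). That is 61.5% higher, against 29.5% of all tested genes, with a median difference of 0.46. The mean level of the 13 markers was 10.10 to 10.54 in CK, 9.51 to 10.04 in KO and 9.98 to 10.21 in WT arrays. Of macrophage, endothelial, epithelial, neural and muscle markers 2, 1, 2, 1 and 2 passed the filter on dim genes, of 8, 7, 7, 8 and 7 measured. Single markers differed strongly all the same. Cd68, a lysosomal protein of macrophages, read 8.59 ± 0.02 in CK, 7.99 ± 0.22 in KO and 10.64 ± 0.09 in WT cells, and Lyz2, the lysozyme of macrophages, 7.59 ± 0.25 in CK, 8.83 ± 0.13 in KO and 6.90 ± 0.07 in WT cells. Tek, an endothelial receptor, read 6.51 ± 0.07 in CK, 6.80 ± 0.03 in KO and 8.77 ± 0.18 in WT cells. With these means below 7.24 in some genotypes, Lyz2 passed the filter only through the mutants and Tek only through WT. The values of Lyz2 and Tek are therefore a description. Map2, a neuronal microtubule protein, read 9.35 ± 0.15 in CK, 7.63 ± 0.13 in KO and 10.57 ± 0.14 in WT cells. Nes, nestin of neural progenitors, which did not pass the filter and was not tested, read 9.50 ± 0.36 in CK, 6.003 ± 0.07 in KO and 6.04 ± 0.18 in WT cells. Of 5 tested adipocyte markers 0 rose and 4 fell in KO by limma (0 above 0 at an unadjusted p under 0.05), and 2 rose and 2 fell in CK. A genotype mean below 7.24 was found for 1 of the 5, which was tested only through its higher level elsewhere. The part of these differences in the ribosome biogenesis results was not tested.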

How the data were processed

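Total RNA of 9 samples, 3 per genotype, was labelled with biotin and hybridised to Affymetrix arrays. The authors deposited log2 expression values per probe set made with RMA (affy package), per the submitters' processing notes; versions and annotation are not given in the sources used here. RMA includes quantile normalization between arrays, so global shifts in cellular RNA content are removed. The deposited log2 values had lost their decimal mark and were read with the mark after digit 1, or after digit 2 where digit 1 was 1, giving log2 values from 4.28 to 14.4. Where arrays of a group lie on both sides of 10 (2242 pairs of group and probe set) the median range was 0.263, against 8.92 without this step and 0.133 elsewhere. This holds for 19 members across all arrays. Precision depends on 3 arrays per genotype (median residual SD 0.0875).

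Genes were named from the platform annotation, updated through a RefSeq table of GRCm38.p6 (21640 probe sets with 1 symbol, 1321 with several and 11799 with none). The brightest probe set stood for each gene, and the fit took genes whose mean reached the 40th percentile, using limma 3.58.1 (R 4.3.3) with a coefficient for each genotype, empirical Bayes variances and Benjamini-Hochberg adjustment over 11962 genes. The fit was tested on simulated data. The members and lists were chosen with earlier results of these data known. After values were seen, Mpp6 and Dhx8 were taken off the pathway lists as misnamed entries and Nop53 was moved to the large subunit list.

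Genes given on every array were, in each role, the called member with the largest difference and no overlap for KO and for CK against WT, the 3 highest and 3 lowest called in CK against KO, members called in opposite directions, and members called in none. Heatr1, Nhp2, Rrn3 and Utp6 were added after their values were seen. From each pathway list up to 3 genes of smallest p per comparison were named. Alternatives were other filters, probe set handling, normalization, variance models and thresholds, fits of 6 arrays, the replicate number as a block, and leaving out tied genes, genes on both sides of 10, or each array.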

Additional observations from a re-analysis of the deposited data

How the results depend on the processing

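Of 270 alternative values of the counts and medians, 255 stayed within 1.5 times the reported count or within the spread between arrays of the reported median, and no member called in either direction was called in the opposite direction under any alternative run. Part of this tally was fixed in advance, since a median did not change with the mean-variance trend or when an array of the third genotype was left out. The tolerance also admitted CK minus KO medians on both sides of 0. A threshold of at least 1.5-fold left 10 members higher and 0 lower in KO against WT (limma; 1 lower without it), 20 higher and 0 lower in CK against WT, and 2 higher and 3 lower in CK against KO, with 2155, 3025 and 3078 genes called. Leaving out genes read on both sides of 10, which removes 19 members, gave 22 higher and 0 lower for KO, 22 higher for CK and 10 higher for CK against KO. Array weights gave 2 lower for KO, and an adjusted p under 0.01 gave 11 higher for CK against KO. Leaving out 1 array at a time gave 35 to 39 higher and 1 lower for KO, 29 to 37 higher and 7 to 8 lower for CK, and 14 to 21 higher and 14 to 17 lower for CK against KO. Without CK replicate 1 or WT replicate 3, 8 member calls were lost in CK against WT.

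For the 21 members chosen by rule to be given on every array, 1353 of 1413 alternative values kept direction and side of the threshold, 27 lost the call, 12 gained one and 21 changed sign. Heatr1, Nhp2, Rrn3 and Utp6, also given on every array, are outside this tally, and with 1 array left out only Nhp2 among them lost a call (CK against WT, in 2 of 9 fits). The sign changes were all in differences that were not called. They were 0.00062 for Rrp15 in CK minus WT (quantile normalization), -0.0031 for Tcof1 in CK minus WT and -0.20 for Utp18 in CK minus KO (array weights), and 0.017 for Wdr75 in CK minus WT (median centring). With 1 array left out the ranges were -0.040 to 0.32 for Utp18 in KO minus WT, -0.019 to 0.42 in CK minus WT and -0.18 to 0.30 in CK minus KO. In CK minus WT they were -0.0081 to 0.089 for Npm1, -0.13 to 0.039 for Pes1, -0.025 to 0.068 for Tcof1 and -0.028 to 0.011 for Wdr75, and in CK minus KO -0.031 to 0.074 for Noc3l. The cause was not tested.

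With the replicate block, 36 members were higher and 1 lower for KO, 37 and 8 for CK, and 17 and 16 for CK against KO, with 5979, 7377 and 7291 genes called. Same-numbered arrays correlated between -0.30 and 0.36 in their deviations (0.05, 0.25 and 0.36 for KO with WT). Not all were over 0.1, so the arrays were not treated as pairs, and whether a number marks a shared day or batch was not tested. Signal limits Rrs1 most, whose WT mean lay below 7.24.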
